A study of Mus musculus and Homo sapiens with 40 samples.

Results

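The regions described here are the 3034 stretches of the mouse genome that carried an H3K27ac peak after LPS in both p42- and p30-expressing HPC-7 cells and in neither line when untreated. They were chosen from the 4 deposited H3K27ac peak lists (p42 untreated, p42 with LPS, p30 untreated, p30 with LPS). Peaks on the 19 autosomes and on X and Y that overlapped by at least 1 bp were merged into 183190 regions, and a region counted as present in a list when one of its peaks came from that list. The regions gained in both lines were 1.66% of all merged regions. Presence and absence in the lists chose them, so the strength of their peaks is given below as a description only.

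HPC-7 is a mouse hematopoietic progenitor cell line. It was transduced with a retroviral vector, pMSCV-IRES-GFP, carrying either full-length CEBPA p42 or the N-terminally shortened CEBPA p30 as a fusion with ERT2, a modified estrogen receptor fragment, and sorted for GFP. All lists used here carry 1 of these fusions, none comes from cells with an empty vector, and each isoform is also 1 cell line, so isoform and cell line cannot be told apart. H3K27ac was measured in 3 samples per group, either without treatment or after 2 h of LPS at 100 ng/mL, and the authors called 1 list per group on the pooled samples. H3K4me1 of untreated cells (2 samples per line, pooled) was read beside them. So were the sites found with an anti-CEBPA or an anti-ER antibody, also in cells without LPS (1 library per line and antibody). The methods of the study say that cells with the fusions received hydroxytamoxifen, which the sample labels do not name.

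H3K27ac is acetylation of lysine 27 of histone H3, found at active promoters and enhancers. H3K4me1 marks enhancers whether or not they are active. LPS, a wall component of Gram-negative bacteria, is sensed by the receptor TLR4 with its co-receptors CD14 and MD-2. The receptor signals through MyD88 and TRIF to the transcription factor NF-kB and, through MAP kinases, to AP-1, the dimers of Fos, Jun and related proteins. CEBPA is a myeloid transcription factor, and p30 lacks the N-terminal activation domain of p42.

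Sequences around an NF-kB match are shown first, because that sequence was the one whose share in these regions lay farthest above the share in all regions, relative to it. The stretches of 120 bases belong to the 6 best-ranked regions gained in both lines that lay outside promoters, held a match to the 10-letter NF-kB consensus within 150 bp of the strongest LPS summit, overlapped no exon there and lay on chromosomes from which sequence is shown here. The sequence of the second-ranked of the 6, near *Potefam3b*, is not shown, since it lies in a multi-copy gene family, where near-identical copies can share reads, and its values are uncertain. The others are read on the plus strand of GRCm39 (mm39), and capitals mark the NF-kB match.

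Region near *Cd180*, chr13:102710044-102710163: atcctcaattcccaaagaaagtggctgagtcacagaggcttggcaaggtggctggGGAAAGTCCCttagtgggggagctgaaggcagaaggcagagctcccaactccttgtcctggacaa
Region near *Cebpd*, chr16:15801959-15802078: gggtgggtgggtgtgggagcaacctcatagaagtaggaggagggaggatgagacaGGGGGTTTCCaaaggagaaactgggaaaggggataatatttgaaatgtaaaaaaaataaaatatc
Region near *Arhgap36*, chrX:48515224-48515343: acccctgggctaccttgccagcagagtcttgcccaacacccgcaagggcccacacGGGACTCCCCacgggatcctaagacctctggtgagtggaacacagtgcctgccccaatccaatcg
Region near *Atp6v1e2*, chr17:87257761-87257880: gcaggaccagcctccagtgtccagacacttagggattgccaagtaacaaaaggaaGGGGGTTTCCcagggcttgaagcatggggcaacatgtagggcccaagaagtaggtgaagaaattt
Region near *Ankrd44*, chr1:54854462-54854581: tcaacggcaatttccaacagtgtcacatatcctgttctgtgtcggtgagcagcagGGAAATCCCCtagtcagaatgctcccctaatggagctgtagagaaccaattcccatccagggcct

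The stretch near *Cd180* also holds an AP-1 match, TGAGTCA, at bases 26 to 32, and the stretch near *Arhgap36* holds a CEBP match, TTGCCCAA, at bases 29 to 36. The centre of the NF-kB match lay 46 bp before the summit in the region near *Cd180* and 8 bp after it in the region near *Arhgap36*. In the stretches near *Atp6v1e2* and *Ankrd44*, a second NF-kB match overlapped the first by all but 1 base.

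Shorter sites were read inside regions near genes with a known part in inflammation, chosen after their values had been seen, to show the match at single inflammatory loci. Each line gives 30 bases, again with the NF-kB match in capitals.

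*Ccl5*, promoter, chr11:83421415-83421444: ccaggacttgGGGAGTTTCCacaaaagaca
*Il1b*, intronic region 9622 bp from the start of *Il1b*, chr2:129222834-129222863: gggcaacactGGGACTTTCCaaatgagtcg
*Slc11a1*, promoter, chr1:74420773-74420802: taccacatagGGGACTTTCCcagaacggtg
*Ripk2*, chr4:16112633-16112662: cttccttctgGGGAAACCCCactcatgctc

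The lists behind these regions differed in length. On the chromosomes used, the p42 lists held 129369 peaks untreated and 107141 with LPS, and the p30 lists 139210 and 142419. The LPS list of p42 was the shortest. In all, 15606 regions were gained in p42-expressing cells and 34964 in p30-expressing cells, and the shared regions were 19.4% of the former and 8.68% of the latter. Both counts include regions marked in the other line when untreated, which the rule keeps from being shared. Regions called gained in p42 only (6861) or in p30 only (23348) were present in that LPS list and no other H3K27ac list. The promoters of all 13 progenitor marker genes examined were marked in all 4 lists, and those of all 6 fibroblast and epithelial genes in none. Of the macrophage markers 5 of 6 were marked in each list, of the B cell markers 1 or 2 of 6 and of the T cell markers 2 or 3 of 7. Each list is 1 pooled list, so no difference has a replicate check and no test was made. The lists do not give the number of reads behind them, for which the study states only a range over all its samples, and the 95% Wilson intervals cover counting error over regions or genes only.

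Regions gained in both lines carried weaker peaks than the lists as a whole, whose median summit folds were 3.57 in the p42 and 3.14 in the p30 LPS list. In the gained regions, summit enrichment, given by the peak caller as a fold over local background, ranged from 1.13 to 11.3 in the p42 LPS list, with a median of 2.92 and quartiles of 2.61 and 3.38. In the p30 LPS list it ranged from 1.09 to 12.6, with a median of 2.84 and quartiles of 2.48 and 3.28. None of the regions had a peak among the strongest 10% of either list. Ranked by p-value within its list, where 0% is the strongest peak, the median region stood at 73.8% in the p42 and 63.1% in the p30 LPS list, whereas the medians for regions marked in all 4 lists were 31.0% and 22.1%. Among the strongest 25% were 44 regions in the p42 list and 140 in the p30 list, with 17 in both. The median length was 379 bp, and 133 regions reached 1000 bp.

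In 2954 of the 3034 regions a single peak was called in each LPS list. The summits of the lines lay within 100 bp of each other in 1921 regions (63.3%), with a median distance of 69 bp, as a description, since the rule required overlapping peaks. Across the regions, fold enrichment in p42- and p30-expressing cells had a Spearman rho of 0.32, a description over regions of the same 2 pooled lists. The 2 lists are not scaled to each other. With that limit, the fold was higher in the p42 list in 1774 regions and in the p30 list in 1260. By rank within the list the order turned, with 1937 regions ranked better in p30 and 1097 in p42. In 36 regions the folds lay more than 2-fold apart. Among these, chosen after their values were seen, was a region 6114 bp upstream of *Il1a*, the gene of interleukin 1 alpha, with 5.99-fold in p42 and 2.12-fold in p30. A region near *Sp3*, a zinc finger transcription factor gene, had 2.77-fold in p42 and 7.91-fold in p30. A region near *Txlnb* had 11.3-fold and 4.25-fold.

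**Figure D1:**
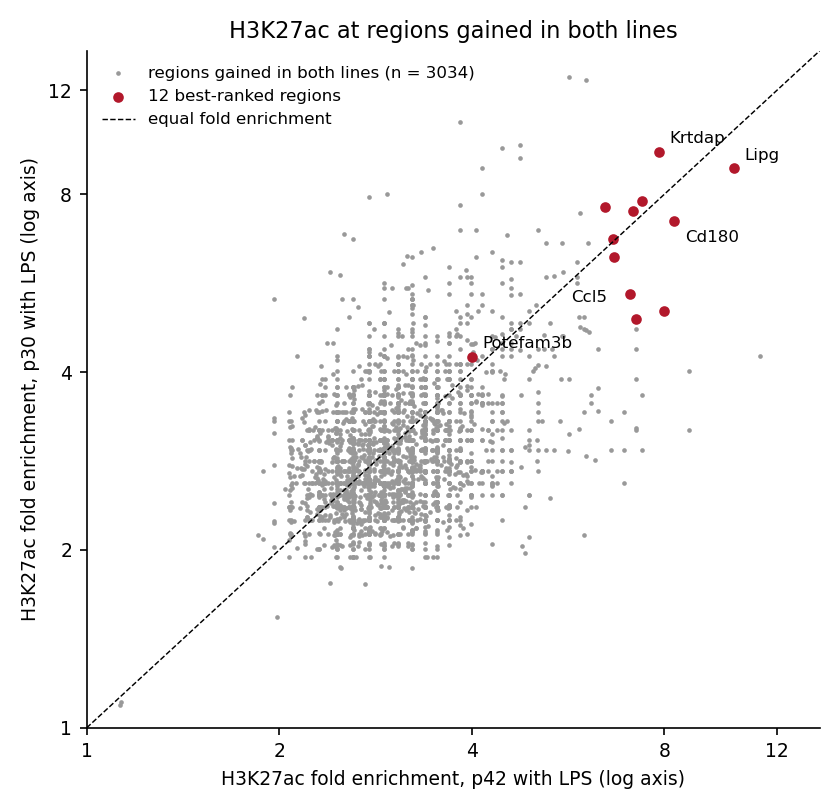
Fold enrichment at the summit of the 3034 regions gained in both lines, in the p42 LPS list (x axis, log scale) and the p30 LPS list (y axis, log scale), 1 point per region, with named regions labelled. Most points lie between 2- and 4-fold on both axes, and the region near *Lipg* combined 10.3-fold in p42 with 8.86-fold in p30.

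The rule has a threshold, which is the q-value of about 0.05 at which the lists end. Just inside it was a region near *Rftn1*, a lipid raft protein gene, with 1.97-fold and a −log10 q of 1.31 in p42 and with 2.23-fold and 2.54 in p30. Just outside was a region near *Map2k3*, a kinase gene of the p38 pathway. It had 2.92-fold and 2.13-fold with LPS, but an untreated p42 peak of 1.94-fold with a −log10 q of 1.31 kept it out. A region near *Sp140* was kept out by an untreated p30 peak of 1.52-fold with a −log10 q of 1.32. In all, 3657 regions were present in both LPS lists and in untreated p42 only, and 3863 in both LPS lists and in untreated p30 only. The lowest folds among the gained regions were at 2 neighbouring regions near *Alkbh8*, the only ones below 1.5-fold in both lists, at chr9:3023644-3024471 (1.13 and 1.11) and chr9:3020278-3020554 (1.13 and 1.09), p42 first. They lay 310976 and 314595 bp from the start of that gene, and at such folds their gain is uncertain.

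The best-ranked regions, by the larger of their 2 rank percentages, lay near genes of diverse function. The first was an intergenic region of 480 bp, 80806 bp from the start of *Lipg*, the gene of endothelial lipase. Its fold was 10.3 in p42 and 8.86 in p30, and an untreated peak lay 289 bp away. The next lay in an intron at chr13:102709457-102710471, 119891 bp from the start of *Cd180*, which encodes a Toll-like receptor homologue known to modulate LPS responses. It had 8.30-fold and 7.21-fold, p42 first, and no untreated peak within 71155 bp. Then came the *Potefam3b* region, with 4.00-fold and 4.25-fold. An intergenic region 4241 bp from the start of *Krtdap*, a keratinocyte gene, had 7.84-fold and 9.45-fold. A region 71940 bp from the start of *Cd47*, which encodes a surface signal against phagocytosis, had 7.37-fold and 7.80-fold.

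The region near *Xcr1*, a chemokine receptor gene, sat on an annotated start 7183 bp from that of the gene and had 7.15-fold in p42 and 7.49-fold in p30. A region at chr11:83418796-83420782 within *Ccl5*, the gene of the chemokine RANTES, had 7.07-fold and 5.43-fold. The promoter of *Slc11a1*, which encodes the NRAMP1 metal transporter of phagosomes, held a region at chr1:74420295-74421644, with its summit 356 bp from the start and folds of 6.67 and 6.26. A region 7178 bp from the start of *Saa4*, a serum amyloid A gene, had 6.66-fold and 6.72-fold. *Slc15a3*, a lysosomal transporter gene, had an intronic region with 7.99-fold and 5.08-fold, and *Lhfpl2* one with 7.22-fold and 4.93-fold. The last of the 12 lay at chr16:15801039-15802047, intronic and 95647 bp away from the start of *Cebpd*, the gene of the acute-phase factor C/EBP delta, with 6.45-fold and 7.60-fold. Of these 12 regions, 7 held the NF-kB sequence and 7 the AP-1 sequence, 6 overlapped H3K4me1 and 3 a CEBPA or ER site.

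Most of the regions lay outside promoters. The summit fell in a promoter, from 1000 bp upstream to 100 bp downstream of any annotated start, in 322 regions (10.6%), against 13% of all merged regions. Introns held 60.9%, exons 12.4% and intergenic sequence 490 regions (16.2%). The nearest protein-coding start was farther than 10 kb for 47.7% and farther than 100 kb for 5.93%, with a median distance of 8984 bp. Among autosomes the share of merged regions that were gained in both lines ran from 1.30% on chromosome 9 to 2.35% on chromosome 16.

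The gained regions often sat beside chromatin that was acetylated before LPS. A peak of an untreated list lay within 500 bp of 43.8%, within 1000 bp of 61.7% (95% interval 60.0 to 63.5) and within 5000 bp of 86.2%. Within 1000 bp, the share was 62.9% for regions gained in p42 only and 58.6% for regions gained in p30 only. There were 419 regions (13.8%) with no untreated peak within 5000 bp, and 38 with none within 50 kb.

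Each region was assigned to the protein-coding gene with the nearest start, which is a statement of position and not of regulation. The 3034 regions were nearest to 2096 of 21738 protein-coding genes (9.64%), of which 1557 had 1 region, 338 had 2 and 201 had 3 or more. Only 14351 of the 21738 genes were nearest to any merged region, so the 9.64% includes genes that could not be counted. *Myc*, the gene of a growth-promoting transcription factor, was nearest to most, with 13 of the 155 merged regions assigned to it. They lay 3395 to 445275 bp from its start, and their folds spanned 2.46 to 5.99 in p42-expressing and 2.24 to 4.96 in p30-expressing cells. *Psmg1*, a proteasome assembly chaperone gene, followed with 12 of 55, then *Zeb2*, a zinc finger transcription factor gene, with 11 of 207 and *Fut8*, a fucosyltransferase gene, with 11 of 199. *Dnajb6*, a co-chaperone gene, had 9 of 66, *Atp8b4*, a flippase gene, 9 of 101, *Tiam1*, a Rac exchange factor gene, 9 of 227, and *Ets2*, an ETS transcription factor gene, 8 of 44.

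Some of these formed clusters. Joining gained regions less than 50 kb apart gave 45 clusters of 5 or more, which held 294 regions. Between *Ets2* and *Psmg1*, 263206 bp on chromosome 16 held 20 regions gained in both lines among 68 merged regions, of which 12 overlapped H3K4me1 and 4 held the NF-kB sequence. A cluster of 11 on chromosome 5 ran from *Dnajb6* towards *Il6* over 176773 bp. Its best-ranked region, 92372 bp from the start of *Il6*, had 6.04-fold in p42 and 4.72-fold in p30. There were 3 clusters of 9, around *Ccl3* and *Ccl4*, around *Atp8b4* and *Dtwd1*, and around *Lpgat1*, *Nek2* and *Slc30a1*, and 1 of 8 at *Tiam1*. A cluster of 7 around *Ccl5* and *Taf15* was chosen after its values were seen.

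Genes of the LPS response were examined by their roles, beginning with the receptor. Among 28 genes of the LPS receptor and Toll-like signalling, 5 (17.9%, interval 7.88 to 35.6) were nearest to a gained region, beside 9.64% of all protein-coding genes. Of the 433 regions assigned to the list, 12 (2.77%, interval 1.59 to 4.78) were gained in both, beside 1.66% of all merged regions. Both intervals hold the share over all. *Ripk2*, a kinase gene downstream of NOD receptors, took 8 of these 12, whose folds spanned 2.57 to 4.30 in p42-expressing and 2.24 to 5.13 in p30-expressing cells. The kinase genes *Map3k7* and *Map3k8* and the inhibitory *Irak3* had 1 each. *Tlr2*, a receptor gene named after its values were seen, also had 1. *Tlr4*, *Cd14* and *Myd88* had none, and their promoters were marked in all 4 lists.

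NF-kB subunits and their feedback inhibitors had more. Of 20 genes, 10 (50%) were nearest to a gained region, beside 9.64% of all protein-coding genes. Of the 446 regions assigned to them, 29 (6.50%, interval 4.57 to 9.18) were gained in both lines, beside 1.66% of all merged regions. *Tnfaip3*, the gene of the ubiquitin-editing inhibitor A20, had 7, at 4021 to 76647 bp from its start. *Nfkb1*, the gene of the p105 and p50 subunits, had 6, all within 9904 bp of an annotated start. *Nfkbiz*, an IkB family gene, had 5 and *N4bp1* had 3. *Nfkbia*, the gene of the inhibitor IkB alpha, had none, and its promoter was marked in all 4 lists.

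The secreted products came next. For these, the shares over all were 9.64% of protein-coding genes and 1.66% of merged regions. Of 24 genes of cytokines and cytokine feedback, 14 (58.3%, interval 38.8 to 75.5) were nearest to a gained region, with 25 of 274 regions (9.12%). *Socs3*, an inhibitor of cytokine receptor signalling, had 6, *Il6* and *Il1a* had 3 each and *Il1b* had 2. The region at the *Il1b* promoter, 229 bp from its start, had 3.99-fold in p42 and 2.48-fold in p30. An untreated peak lay 433 bp from it, and an annotated *Il1b* promoter was already marked in untreated p42, though not in untreated p30. The other *Il1b* region, at chr2:129222253-129223375, had 4.61-fold and 4.84-fold, with no untreated peak within 5995 bp. Of 19 chemokine genes, 5 (26.3%) were nearest to a gained region, with 10 of 105 regions (9.52%, interval 5.26 to 16.7).

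*Ccl5* had 5 of these 10, *Ccl4* had 2, and *Cxcl16* and *Ccl17* had 1 each. The region in the *Ccl5* gene body and the next at the promoter, at chr11:83420901-83421945 with folds of 4.46 in p42 and 5.67 in p30, overlapped H3K4me1 in both lines. A further region upstream, at chr11:83422506-83423180, had 3.69-fold and 2.72-fold. *Cxcl1*, *Cxcl2* and *Tnf* had none. The promoters of *Cxcl2* and *Tnf* were marked in all 4 lists and that of *Cxcl1* in none.

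Over these 4 lists together, 34 of 91 genes (37.4%, interval 28.1 to 47.6) were nearest to a region gained in both lines, against 9.64% of all protein-coding genes. That 9.64% is low because only 14351 of the 21738 genes were nearest to any merged region. The shares over regions do not have this limit: 76 of 1258 regions (6.04%, interval 4.85 to 7.50) were gained in both, against 1.66%. The LPS receptor list by itself did not stand apart from these background shares, which its intervals hold. Regions gained in p42 only were 5.72% of the regions assigned to the 4 lists, beside 3.75% of all merged regions. Regions gained in p30 only were 21.3%, beside 12.7%. Regions lost in both lines were 1.75%, beside 3.95%. A peak over an annotated promoter in both untreated lists was found for 45 of the 57 genes without a gained region and for 26 of the 34 with one. For the chemokine genes these counts were 5 of 14 and 3 of 5. The share over all protein-coding genes was not computed, so marking before LPS is given as a description only.

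Early transcription factors and inhibitors of MAP kinase signalling were examined next. Of 31 immediate early and AP-1 genes, 8 (25.8%) were nearest to a gained region, beside 9.64% of all protein-coding genes. They had 29 of 607 regions (4.78%, interval 3.35 to 6.78), beside 1.66% of all merged regions. *Myc* gave 13 of them and *Batf*, an AP-1 family gene, 7 of its 28 merged regions. *Fosl2*, another AP-1 gene, and *Zfp36l1*, which encodes an mRNA decay factor, had 2 each. *Jun* and *Egr1* had none and were marked at the promoter in all 4 lists. Of 13 MAPK phosphatase and sprouty-type inhibitor genes, 4 had a region, with 7 of 317 regions (2.21%, interval 1.07 to 4.49), an interval that holds the 1.66% of all regions. *Dusp4* had 3, *Spred2* 2, and *Spred1* and *Dusp5* 1 each.

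For the next 4 lists, the shares over all were 9.64% of protein-coding genes and 1.66% of merged regions. Of 31 interferon-stimulated genes, 6 had a region (19.4%, interval 9.19 to 36.3, which holds the 9.64%). They had 9 of 255 regions (3.53%, interval 1.87 to 6.57). *Rsad2*, an antiviral gene, had 2, and *Oasl2* and *Usp18* 1 each. Of 20 genes of leukocyte adhesion and activation, 6 (30%) had a region, with 11 of 279 regions (3.94%, interval 2.22 to 6.92). *Tnfrsf1b*, a TNF receptor gene, had 3, and *Cd69*, *Pecam1* and *Itgal* 2 each. Of 22 C/EBP and myeloid factor genes, 11 (50%) had one, with 22 of 831 regions (2.65%, interval 1.76 to 3.98). *Ets2* gave 8 of these, and *Myb*, *Runx2* and *Irf4* 2 each. Of 24 genes of stress and growth arrest, 7 (29.2%) had one, with 11 of 286 regions (3.85%, interval 2.16 to 6.755). *Pim1*, a survival kinase gene, had 4, *Hmox1*, the heme oxygenase gene, 2, and *Bcl2a1b* and *Gadd45a* 1 each.

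Stem and progenitor factors had 4 of 324 regions (1.23%, interval 0.48 to 3.13), 1 each near *Gata2*, *Ikzf1*, *Meis1* and *Zfpm1*. DNA replication genes had 1 of 270 (0.37%, interval 0.07 to 2.07), near *Mki67*, and the interval holds the 1.66% of all regions. With a gained region within 50 kb of the start counted instead, 8 of the 25 replication genes (32%) had one, against 21.1% of all genes. None of the 80 regions assigned to 20 neutrophil granule and effector genes was gained in both lines, with an interval up to 4.58%, which holds the 1.66% of all regions.

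**Figure D2:**
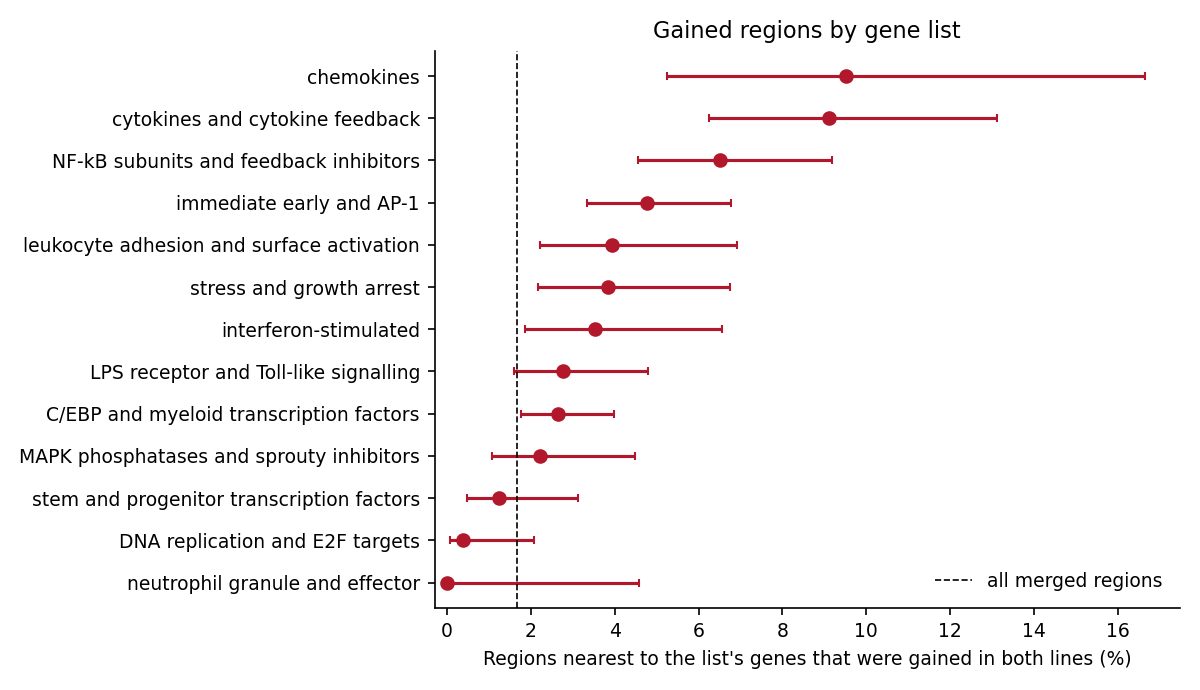
Share of the merged H3K27ac regions nearest to the genes of each list that were gained with LPS in both lines (x axis, percent; bars are Wilson 95% intervals), with the 1.66% of all merged regions as a line. Chemokine (9.52%) and cytokine (9.12%) genes stand highest, and DNA replication and neutrophil granule genes lie at the bottom, with intervals that hold the 1.66%.

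Sequence was not used in choosing the regions. Within 1000 bp centred on the strongest summit, 433 of the 2712 regions outside promoters (16.0%, interval 14.6 to 17.4) held the NF-kB sequence on either strand, in a window that reaches beyond most of the regions, against 9.32% of all merged regions outside promoters. The share was 9.01% in regions gained in p42 only, 10.9% in those gained in p30 only, 10.6% in those present in all lists and 6.85% in those lost in both lines. The same letters in reversed order, a control with the same base composition, had shares of 11.9% in the shared gained regions and 11.98% overall. A match is a description of the sequence and not a bound site.

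The AP-1 sequence, TGANTCA, occurred in 908 of the 2712 (33.5%), against 27.9% of all. Regions gained in p42 only had it in 30.3%, those gained in p30 only in 27.5%, those present in all lists in 29.9% and those lost in both in 24.9%. Reversed, as ACTNAGT, its shares were 25.2% in the shared gained regions and 25.7% overall. Both sequences together were found in 158 regions (5.83%), against 2.58% of all, 2.66% of those gained in p42 only and 2.80% of those gained in p30 only.

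**Figure D3:**
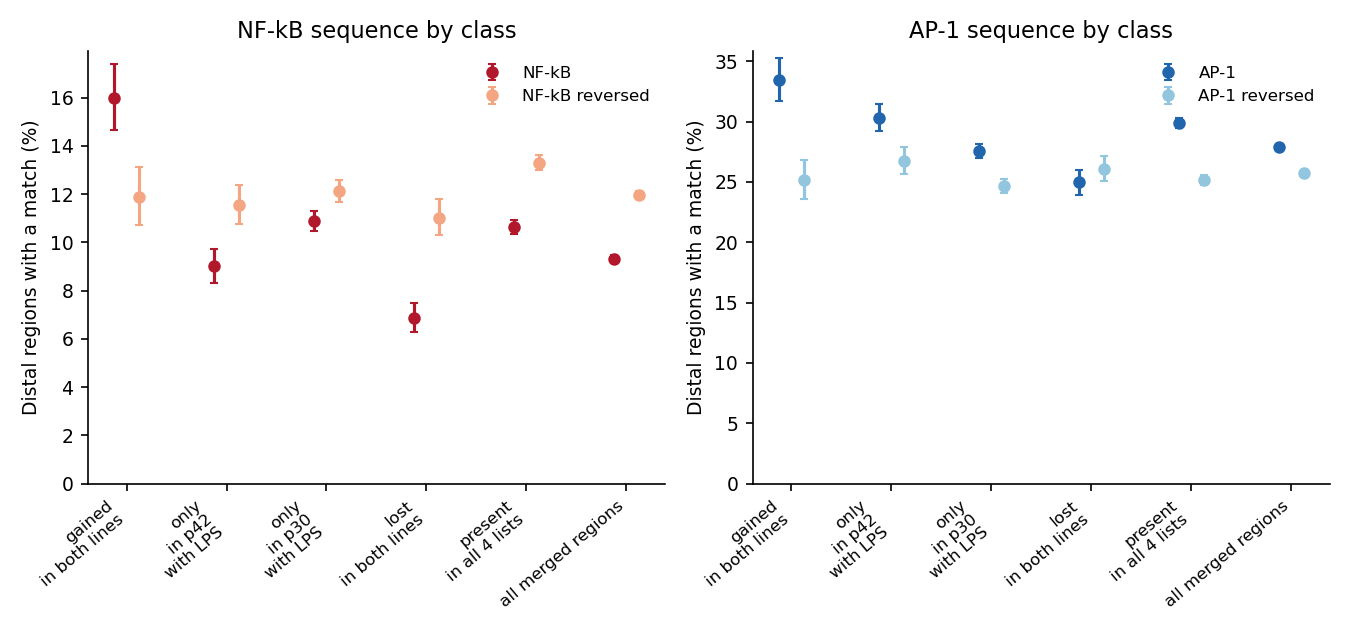
Percent of regions outside promoters with the NF-kB or the AP-1 sequence, and with the same letters reversed, within 1000 bp around the summit, by class of region (bars are Wilson 95% intervals). Regions gained in both lines stand above the other classes for NF-kB, at 16.0%, while the reversed letters lie between 11.0% and 13.3% in all classes.

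Seen from the other side, 2.92% of all regions outside promoters that held the NF-kB sequence were gained in both lines, against 1.58% of those without it. Among regions outside promoters gained in p42-expressing cells, 28.0% of those with the sequence and 18.1% of those without it were also gained in p30. With the reversed letters these shares were 19.3% and 19.2%. Among regions gained in p30-expressing cells, 12.6% and 8.11% were also gained in p42. Several NF-kB matches in 1 window were found in 4.09% of these regions, against 1.36% overall.

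The consensus allows 64 decamers, and a decamer and its reverse complement were counted as the same. GGGGATTTCC was the most frequent among the regions gained in both lines, in 37 of them (1.36%, against 0.275% of all). GGGAAACCCC followed in 30, GGGGAATTCC in 27, GGGACTTTCC in 24 and GGGAAATTCC in 22. Of all regions with GGGGATTTCC outside promoters, 8.45% were gained in both lines, and of those with GGGGAATTCC, 8.85%.

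The other 11 sequences differed from the background by fewer percentage points. The CEBP sequence, TTGCNNAA, occurred in 34.9% of the regions against 33.9% of all, and TGATGCAA, the composite of CEBP and ATF4, in 3.21% against 2.61%. The PU.1 sequence, AGGAAGT, occurred in 26.1% against 29.6%, RUNX, TGTGGTT, in 26.03% against 25.3%, and AGATAAG, bound by GATA factors, in 12.4% against 12.8%. The GAS element, TTCNNNGAA, occurred in 29.2% against 26.7%, and the interferon response element in 15.6% against 13.7%. The cyclic AMP response element, TGACGTCA (0.774% against 0.785%), the CArG box of SRF (4.87% against 4.93%), the EGR sequence, GCGTGGGCG (0.184% against 0.149%), and the E-box, CACGTG (13.1% against 13.2%), lay close to the background.

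The NF-kB share was highest in the strongest regions. In 5 classes of equal size ordered by rank, it was 25.7% (interval 22.1 to 29.5) in the strongest class and 15.4%, 13.99%, 11.4% and 13.7% in the following ones. The AP-1 share fell from 39.4% to 35.0%, 32.7%, 31.4% and 29.0%. The reversed NF-kB letters were found in 12.3% of the strongest class and 10.5% of the weakest, and the reversed AP-1 letters in 23.6% and 25.9%.

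Regions far from chromatin acetylated before LPS also held the sequences more often. Within 500 bp of an untreated peak, 10.5% held NF-kB, at 500 to 5000 bp 16.9%, and farther than 5000 bp 113 of 370 (30.5%, interval 26.1 to 35.4). For regions gained in p42 only the same shares were 7.28%, 9.81% and 12.4%, and for p30 only 9.58%, 10.9% and 15.5%. The reversed letters gave 11.2%, 12.1% and 13.5% in the regions gained in both. The AP-1 shares stood in the same order, with 30.5%, 32.9% and 44.9%, but regions gained in p42 only did likewise, with 27.7%, 29.8% and 42.6%. Both sequences together were in 3.22%, 5.69% and 14.6% of the regions gained in both lines.

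Within the strongest of the 5 classes, NF-kB was found in 21.9% of regions with an untreated peak within 5000 bp and in 38.2% of those without one. In the other classes the shares were 11.9% and 26.7%. At like rank in the p42 LPS list, regions gained in both lines held NF-kB more often than regions gained in p42 only. In the strongest 40% of that list these shares were 33.8% (68 of 201) and 10% (13 of 130), and in the weakest 20% they were 12.7% and 8.61%. In the p30 list the shares were 29.2% and 16.0% in the strongest 40%, 10.2% and 11.0% between 60% and 80%, and 12.9% and 10.5% in the weakest 20%, regions gained in both first.

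**Figure D4:**
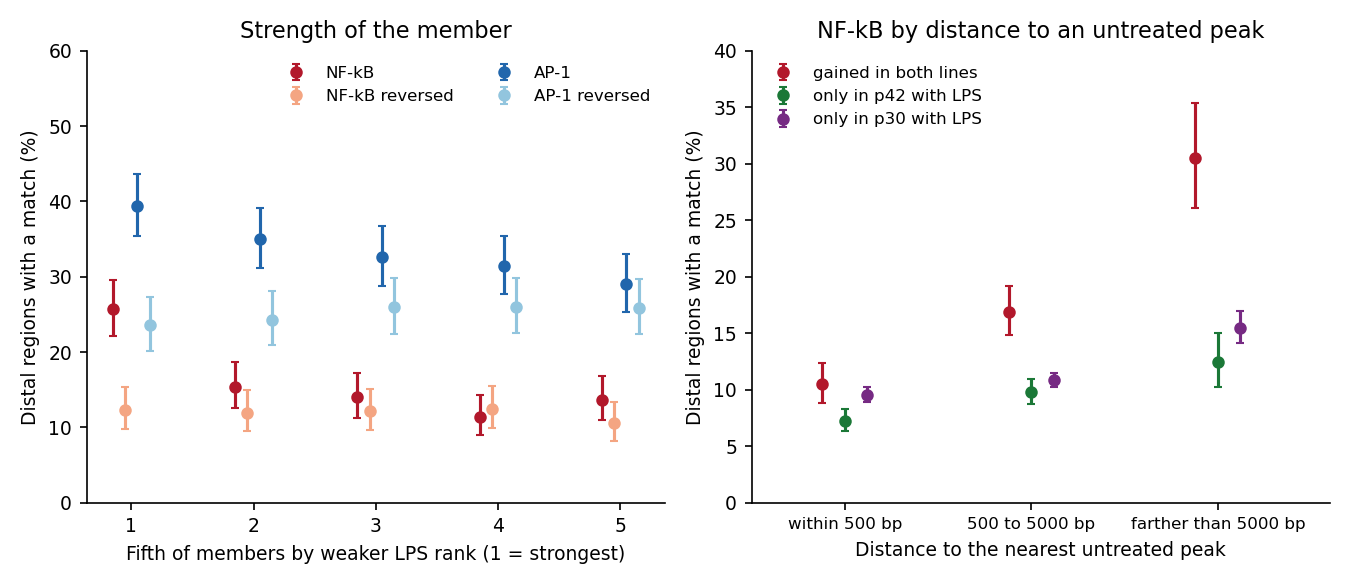
Left, percent of regions gained in both lines, outside promoters, with the NF-kB, AP-1 or reversed sequence in 5 classes of strength; right, the NF-kB share by distance to the nearest untreated peak, for regions gained in both lines and in 1 line only (bars are Wilson 95% intervals). NF-kB reached 25.7% in the strongest class and 30.5% beyond 5000 bp, where regions gained in 1 line only had 12.4% and 15.5%.

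Within 200 bp of it, NF-kB matches numbered 2.34 per 100 regions and 100 bp in the regions gained in both lines, against 1.18 at 600 to 1000 bp. Over all regions outside promoters the values were 1.25 and 0.909. The reversed NF-kB letters were also denser near the summit, with 1.60 and 1.28 in the regions gained in both lines and 1.67 and 1.23 over all regions. AP-1 matches numbered 4.68 near the summit and 3.13 farther out, against 3.30 and 3.02 over all regions.

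**Figure D5:**
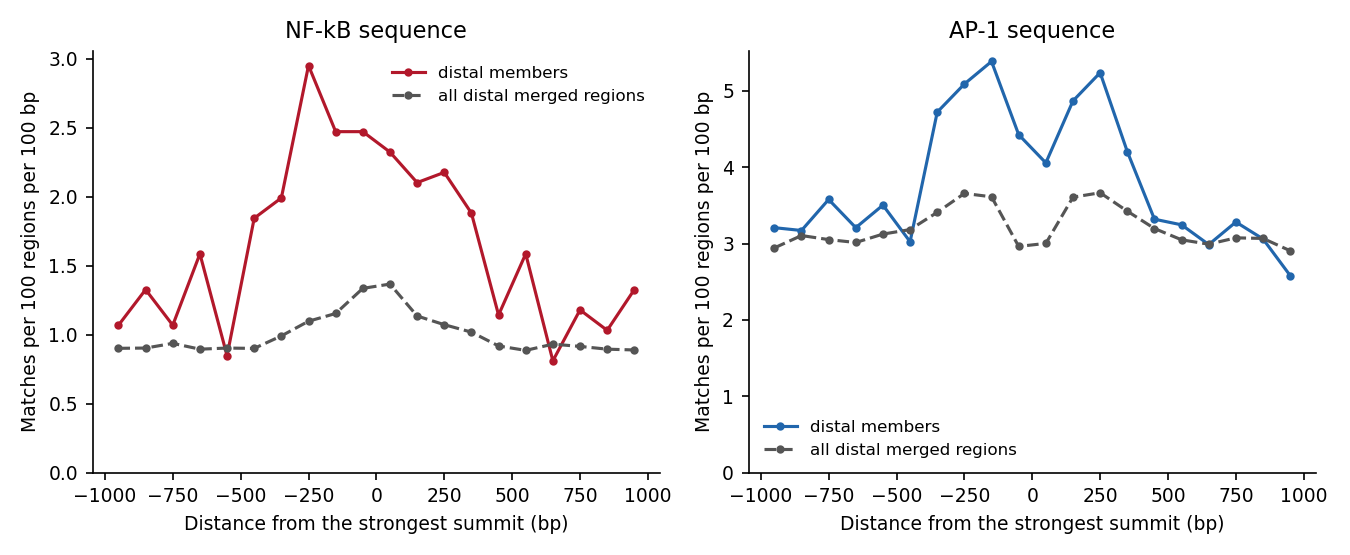
Number of NF-kB and AP-1 matches per 100 regions and 100 bp (y axis) by distance from the summit in bp (x axis), for regions gained in both lines and for all regions outside promoters. The NF-kB profile of the gained regions stood at 2.34 within 200 bp of the summit, above the 1.25 of all regions.

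Base composition moved with the NF-kB share. In windows with a GC content under 42.7%, the NF-kB share was 10.8% for the shared gained regions and 5.03% overall. Between 42.7% and 47.1% GC the shares were 13.3% and 8.06%, and above 47.1% they were 23.6% and 13.6%. The share was higher in the regions gained in both within each class of GC content.

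H3K4me1 of untreated cells was an independent readout. A peak of either line overlapped 1365 regions gained in both (45.0%, interval 43.2 to 46.8), against 48.3% of all merged regions. Regions gained in p42 only had 31.0%, those gained in p30 only 38.5%, those lost in both lines 25.7% and those present in all lists 74.2%. The p42 list overlapped 937 and the p30 list, which is longer, 1191. In 763 regions both lines had the mark, in 174 only p42 and in 428 only p30.

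Region length differs between classes, with medians of 379 bp for regions gained in both, 215 and 219 bp for those gained in p42 or p30 only and 1464 bp for those present in all lists. In windows of 1000 bp around the summit, the H3K4me1 shares were 53.3% for regions gained in both, 42.8% and 50.5% for those gained in 1 line only, p42 first, and 51.5% for all, so the order against all regions turned. Regions with an untreated peak within 500 bp had H3K4me1 in 48.5% and those farther than 5000 bp in 31.3%, promoters included. The NF-kB share moved little with the mark: 14.6% where both lines had H3K4me1, 16.3% where 1 had it and 16.5% where neither had it.

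CEBPA sites of cells without LPS overlapped few of the regions. Binding after LPS was not measured. An anti-CEBPA or anti-ER site of either line lay in 166 regions (5.47%, interval 4.72 to 6.34), against 10.8% of all merged regions. With presence at a q-value under 1e-05 the share was 11.4%, on the other side of the background. Regions gained in p42 only had 5.01%, those gained in p30 only 1.65%, those lost in both 2.64% and those present in all lists 25.6%. In windows of 1000 bp around the summit, which are alike in length, the shares were 8.34% for regions gained in both, 11.0% for p42 only, 3.80% for p30 only and 11.4% for all, so regions gained in p42 only then stood above those gained in both. With anti-CEBPA, 95 regions had a p42 site and 82 a p30 site, and with anti-ER, 58 had a p42 site and 117 a p30 site. These lists differ in length, with 47517 and 31851 anti-CEBPA and 23248 and 34006 anti-ER sites, p42 first, so the order of the lines followed the length of the lists with either antibody.

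The strongest of the 5 classes had a CEBPA or ER site in 11.4% and the weakest in 3.14%, promoters included. Beyond 5000 bp from an untreated peak the share was 13.1%, against 3.61% within 500 bp. Of the 147 regions outside promoters with a site, 97 (66.0%) held the CEBP sequence, against 849 of 2565 without one (33.1%).

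Only 35 regions (1.15%) had a site in all 4 lists. They included the *Il1b* promoter region and the region 6114 bp upstream of *Il1a*. Others lay near *Saa3*, the gene of an acute-phase serum amyloid A, near *Traf1*, which encodes a TNF receptor adaptor, and near *Fgr*, a myeloid Src-family kinase gene. The regions near *Alkbh8*, with 1.1-fold H3K27ac, also had sites in all 4 lists. No filter for stretches of unspecific signal was applied, so the sites and the gain at *Alkbh8* are uncertain. The examples named here were chosen after their values were seen.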

How the data were processed

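H3K27ac, H3K4me1, anti-CEBPA and anti-ER ChIP-seq peak lists of HPC-7 cells were used, with groups taken from the sample labels. According to the methods and the submitters' processing notes, reads were trimmed with Trim Galore 0.6.6 and aligned with Bowtie2 to mm39, duplicates marked by Picard were removed, and peaks were called with MACS2 against input, on pooled samples for the histone marks. For each peak the authors deposited the fold enrichment (a ratio over the local background), the −log10 of the p-value and the −log10 of the q-value. These were used only within their own list, and each list ended at a q-value of about 0.05, so a missing peak means one below that threshold. The lists hold neither read numbers nor replicate values, although the study states a range of depth for its samples, and more deeply sequenced samples would give longer lists, which moves presence and absence.

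Merging, annotation with GENCODE M39, counting of 13 consensus sequences and 2 reversed controls in windows of 1000 bp, and Wilson 95% intervals used Python 3.11.15, numpy 2.4.6, pandas 2.3.3 and matplotlib 3.10.9. These steps were tested on made-up data with known answers. The members, motifs and 13 gene lists were chosen with earlier results of these data known. Named were the 12 best-ranked members, the 8 genes nearest to most members and up to 4 genes per list with most members, of which 1 is not reported here, and others are said to be chosen after their values were seen. Human ATF4 peaks were not used here. Alternatives were stricter q-values, equal list lengths, wider merging, other windows, distances and backgrounds.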

Additional observations from a re-analysis of the deposited data

How the results depend on the processing

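Each of the 8 values was recomputed under the alternatives listed for it. NF-kB and AP-1 values are percentage points above all regions outside promoters, which were 6.65 and 5.58. The limit for a move was the counting interval, or a fixed fold change for the number of regions. Values that moved beyond it were the following. With presence at a q-value under 1e-05, 579 regions were gained in both lines, with 17.5 points for NF-kB, 12.3 for AP-1, 12.3% in promoters, 17.6% of inflammatory genes (2.28% of all genes) and 51.0% near an untreated peak. H3K4me1 then reached 48.5% and CEBPA or ER sites 11.4%, both just above their backgrounds of 48.3% and 10.8% instead of below them, so these 2 changed side. With the same number of peaks per list, H3K4me1 was 48.6% and the share near an untreated peak 56.6%. Without members that had an untreated peak within 1000 bp, 1161 were left, with 14.1 points for NF-kB, 10.4 for AP-1, H3K4me1 in 39.9%, a site in 8.61% and 24.2% of inflammatory genes. Merging peaks within 500 bp gave 1578 regions, 9.03 points for NF-kB, 7.99 for AP-1, H3K4me1 in 42.7%, a site in 8.11% and 27% near an untreated peak. A motif window of 500 bp gave 4.12 points for NF-kB. Against regions present in both LPS lists, NF-kB had 5.03 points and AP-1 3.21. H3K4me1 peaks at a q-value under 1e-05 overlapped 30.6% (36.0% of all regions). Within 2500 bp of a start lay 32.5% (35.5% of all). A member within 50 kb of the start was found for 52.8% of inflammatory genes (21.1% of all genes). An untreated peak lay within 500 bp of 43.8% and within 5000 bp of 86.2%. The cause of these shifts was not tested. The other 21 recomputed values stayed within their limit.

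No paired analysis was possible because the H3K27ac lists were pooled over the replicates, and leaving out single replicates could not be done for the same reason. The lists do not give the reads behind each of them, and the shortest list limits which regions can appear in both lines.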

Other observations

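Of the regions with no untreated peak within 5000 bp, promoters included, 31.3% overlapped an H3K4me1 peak of an untreated line and 3.10% had a CEBPA or ER site in all 4 lists, whereas within 500 bp of an untreated peak these shares were 48.5% and 0.977%. On the Y chromosome, 2 of 38 merged regions (5.26%) were gained in both lines. The study lists HPC-7 as a female line, so peaks called on this chromosome are uncertain and the share is not read further. A region at the promoter of *Coq8a*, a gene of coenzyme Q synthesis, had 6.04-fold H3K27ac in p42 and 12.5-fold in p30, and one near *Poc1b* had 5.68-fold and 12.6-fold. Both held the NF-kB and the AP-1 sequence. These regions were chosen after their values were seen.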
